A study of Mus musculus with 24 samples.

Results

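The expression of 10 genes of MHC class I antigen presentation was examined in mouse astrocyte lines that differ in p53 and in the sex of the culture. They were taken as a pathway list, by name and not by their values, though with earlier results of these data known, and are *H2-K1*, *H2-D1*, *B2m*, *Tap1*, *Tap2*, *Tapbp*, *Psmb8*, *Psmb9*, *Psmb10*, and *Nlrc5*. All 10 were found among the 14427 genes of the count table. The 24 RNA-seq libraries came from 8 lines with 3 replicates each, and each mutant line was compared with the p53 KO line of its own culture.

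For each sex there is 1 p53 KO line and 1 line for each of the mutants p53 R172H, p53 Y202C, and p53 Y217C, whose names give the amino acid change in mouse p53. All were derived from Trp53 f/- cortical astrocytes of postnatal day 1 pups (1 floxed and 1 deleted allele, strain background C57BL/6), and all carry a lentiviral Cre with puromycin selection that removes the floxed allele. The mutant lines also carry a retrovirus for mutant *Trp53* and eGFP and were flow-sorted for eGFP, whereas the p53 KO lines were made with Cre alone. The mutation therefore cannot be told apart from the retrovirus, from the sort, or from the history of a single line. Cells of pooled pups made up 1 primary culture per sex, so sex and culture cannot be told apart either. Cells were at passages 10 to 15, and replicates of the in vitro work are described as independent thaws and platings, so the p-values cover variation among platings of 1 line, not among animals.

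MHC class I molecules show peptides from inside the cell to CD8+ T cells. A polymorphic heavy chain (in these mice H2-K or H2-D) pairs with beta-2-microglobulin, and peptides cut by the proteasome are pumped into the endoplasmic reticulum by the TAP transporter and loaded with the help of tapasin. Interferon raises most of these genes in many cell types, through IRF factors and through NLRC5, a transactivator of class I promoters. It also replaces the constitutive catalytic subunits of the proteasome by the immunoproteasome subunits encoded by *Psmb8*, *Psmb9*, and *Psmb10*. Brain cells at rest are known for low class I expression.

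Total counts per library ranged from 52787288 to 136503809. *Trp53*, the targeted gene, was at 46.5 to 53.7 CPM (counts scaled to the normalised library size) in the 6 p53 KO libraries and at 572 to 3870 CPM in the 18 mutant libraries, which marks mutant against KO lines but not which mutation a line carries. Among the astrocyte markers, *Sox9* was at 70.9 to 186 CPM and *Gja1* at 77.3 to 238 CPM, whereas *Gfap* was at most 0.29 CPM outside male p53 Y217C (4.98 to 8.37 CPM) and *Aqp4* at most 0.145 CPM outside male p53 Y202C and male p53 Y217C. The 8 measured fibroblast and pericyte markers, led by *Col1a1*, summed to between 10147 and 44878 CPM, and the 10 astrocyte markers to between 227 and 685 CPM. None of 6 lymphocyte markers and only *Csf1r* and *Tmem119* of 14 microglia and macrophage markers were among the genes analysed. In bulk libraries, fewer cells of a type and less RNA per cell cannot be told apart.

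The class I heavy chain genes carry a short element that is shown first because 2 members share it almost base for base. In capitals are a match to the NF-kappaB consensus and a match to a short spelling of the core of the interferon-stimulated response element (GAANNGAAA, read here on the other strand). The 30 bases are those of the RefSeq promoter windows (GRCm38.p6).
H2-K1, chr17:34000429-34000458, minus strand: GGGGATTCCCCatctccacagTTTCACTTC
H2-D1, chr17:35262923-35262952, plus strand: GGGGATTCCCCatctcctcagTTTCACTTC
Counted from 1 at the 5′ end, the elements differ at a single position, A18T, with the H2-K1 base first. Their first base lies 111 bases before the RefSeq start site of *H2-K1* and 171 bases before that of *H2-D1*. In GENCODE M21 an *H2-D1* transcript begins further upstream, so there the *H2-D1* element lies inside a first exon.

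The same window of *H2-K1* is printed below with that of *B2m*, since the heavy chain and its light chain moved differently in several lines. Both stretches lie upstream of annotated exons, and capitals mark matches to the NF-kappaB consensus, to the interferon response core, and to the CCAAT box (CCAAT), on either strand.
H2-K1, chr17:34000348-34000597, minus strand: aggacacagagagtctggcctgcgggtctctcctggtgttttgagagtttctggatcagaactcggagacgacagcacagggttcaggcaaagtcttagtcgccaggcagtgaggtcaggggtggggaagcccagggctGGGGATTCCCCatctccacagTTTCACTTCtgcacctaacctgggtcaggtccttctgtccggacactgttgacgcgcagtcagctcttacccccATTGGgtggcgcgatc
B2m, chr2:122147437-122147685, plus strand: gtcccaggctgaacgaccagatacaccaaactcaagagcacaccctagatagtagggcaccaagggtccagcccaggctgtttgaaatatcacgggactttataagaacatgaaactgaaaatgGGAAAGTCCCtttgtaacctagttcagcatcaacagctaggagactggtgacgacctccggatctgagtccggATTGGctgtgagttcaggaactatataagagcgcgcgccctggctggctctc
The *B2m* window has no match to the interferon response core as spelled here. It does hold gaaactgaaa, which has an additional A before the free bases and so is not found by this spelling. The lack of a match therefore does not show that *B2m* lacks such an element. RefSeq promoter windows were matched for 8 of the 10 genes (not for *Tap2* and *Nlrc5*). Over the 250 bases before the start site, 2 of the 8 genes held the interferon response core in this spelling, against 6.31% of 32851 promoters. The NF-kappaB consensus was held by 3, against 3.9%. The former were *H2-K1* and *H2-D1*, and the latter the same genes and *B2m*. The heavy chain genes share the element printed above, so their matches are not independent. The CCAAT box was found in 6 of the 8 (33.8% of all promoters), TGACG, a CRE half-site, in 5 (17.8%), and the p53 half-site in 0 (7.13%). The windows of *Tap1* and *Psmb9* overlap on opposite strands, so a match in their shared bases counts for both genes. These are letter matches in a fixed window and were not tested as sites.

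In GENCODE M21 (GRCm38), 7 of the 10 genes lie on chromosome 17 in the MHC region. The positions are 33996017 to 34000347 for *H2-K1* (ENSMUSG00000061232, minus strand), 35262730 to 35267499 for *H2-D1* (ENSMUSG00000073411), 33915899 to 33929292 for *Tapbp* (ENSMUSG00000024308), and 34203527 to 34216321 for *Tap2* (ENSMUSG00000024339). *Psmb9* (ENSMUSG00000096727, 34181987 to 34187764, minus strand) and *Tap1* (ENSMUSG00000037321, 34187553 to 34197225) lie head to head and share 212 exon bases on opposite strands, and *Psmb8* (ENSMUSG00000024338, 34197721 to 34201454) follows. *B2m* (ENSMUSG00000060802) lies on chromosome 2, and *Psmb10* (ENSMUSG00000031897) and *Nlrc5* (ENSMUSG00000074151) on chromosome 8. The strand used in counting is not given in the sources used here, so reads in exons shared with an antisense gene (498 bases of *Psmb8* with *Gm20496*, 904 of *Tapbp* with *Gm19412*) cannot be assigned. Of all 50-base stretches of the transcripts, 9.63% of those of *H2-K1*, 12.8% of *H2-D1*, and 23.2% of *Tapbp* also occur in another gene, and 0% of those of *B2m* and *Psmb10*.

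In female p53 R172H all 10 genes rose against female p53 KO, while of the 14427 genes tested 34.4% were called higher, 35.3% lower, and 69.7% in either direction. Log2 fold changes ran from 1.28 for *B2m* to 3.87 for *Nlrc5*, with a median of 2.11 against -0.01 over all genes. The largest edgeR adjusted p was 9.7e-11, for *Psmb9*, and the next 6.5e-11, for *Tap2*. *Psmb9* was above 1 CPM in only 5 libraries, all of female p53 R172H or female p53 Y202C. It thus passed a filter on low values through these lines, and its rise in them adds no support of its own. In female p53 Y202C, 9 genes changed (68.6% of all genes did), 6 of them higher and 3 lower, where 34.3% of all genes were called in each direction. *B2m*, *Tap1*, *Tap2*, *Tapbp*, *Psmb9*, and *Psmb10* were higher, *H2-K1*, *H2-D1*, and *Nlrc5* were lower, and *Psmb8* did not pass the test. In female p53 Y217C, 6 genes changed (56.7% of all genes), 5 higher and 1 lower, against 28% and 28.7% of all genes, and no log2 fold change exceeded 0.73. The median log2 fold change of the 10 genes was 0.59 and 0.35 in these lines. The mutant and p53 KO libraries did not overlap in CPM for 10, 9, and 6 of the genes in the female R172H, Y202C, and Y217C lines, where 75.4%, 70.4%, and 66% of all genes did not overlap.

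In each of the male mutants more of the 10 genes were called lower than higher. Their summed level, most of it *B2m*, did not fall with these counts, at 500 to 575 CPM in the KO line, 493 to 599 in male p53 R172H, 855 to 947 in male p53 Y202C, and 709 to 790 in male p53 Y217C. In male p53 R172H, 6 genes fell and 0 rose against male p53 KO, while 40.7% of all genes changed, 20.5% lower and 20.2% higher. Male p53 Y202C differed at all 10 genes (73% of all genes), with 4 higher and 6 lower, against 37.6% and 35.4% of all genes. The 4 that rose were *H2-K1*, *H2-D1*, *B2m*, and *Nlrc5*, and the 6 that fell were the transporter, tapasin, and immunoproteasome genes. With genes required above 1 CPM in all 24 libraries, which leaves out *Tap1*, *Psmb8*, and *Psmb9*, 4 were higher and 3 lower there. In male p53 Y217C, 7 genes changed (70.5% of all genes), with *B2m* higher and 6 lower, against 34.9% and 35.6% of all genes. The median log2 fold change of the 10 genes was -0.63, -0.64, and -0.78 in the male R172H, Y202C, and Y217C lines. Their libraries did not overlap with p53 KO for 7, 10, and 8 of the genes, against 52.9%, 74.9%, and 77% of all genes. Each of the 3 mutants of a culture was set against the same 3 p53 KO libraries, so the 3 comparisons are not independent of each other.

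**Figure D1:**
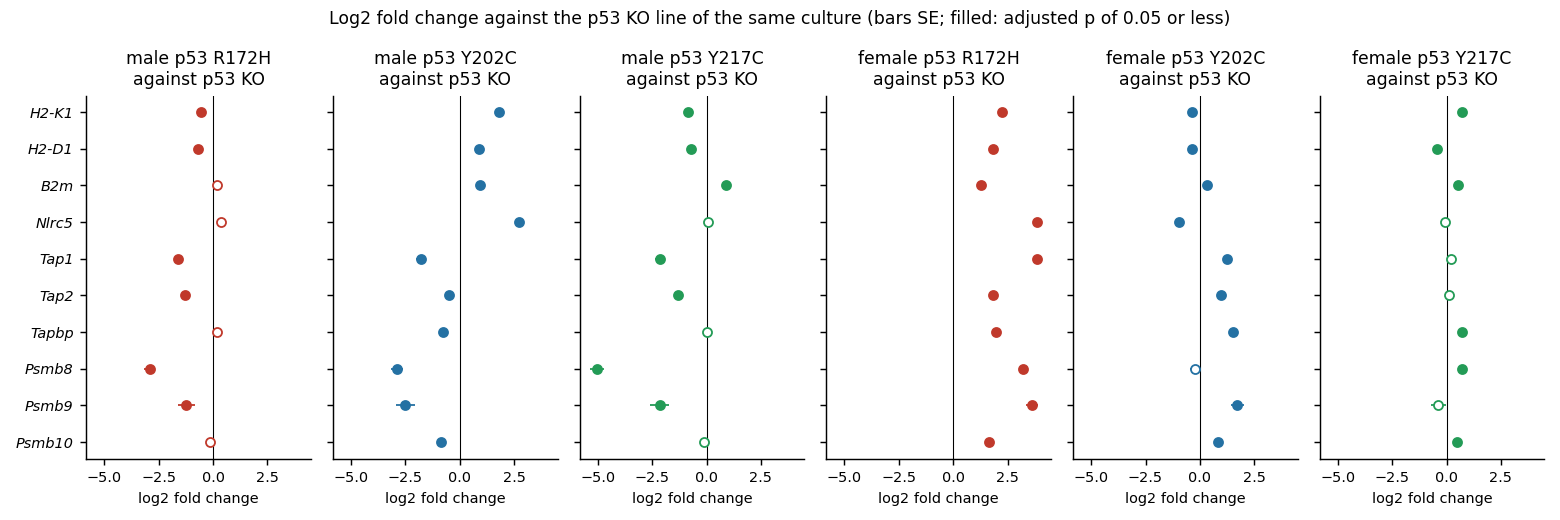
Log2 fold change (x axis) of the 10 genes (rows) in each mutant line against the p53 KO line of its culture, 1 panel per line, with bars for the SE and filled points for an adjusted p of 0.05 or less. All 10 points lie right of 0 in female p53 R172H, and *Psmb8* in male p53 Y217C, at -5.04, lies farthest to the left.

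*H2-K1* and *H2-D1* encode the classical heavy chains, which hold the peptide. *H2-K1* was at 38.4, 46.1, and 47.6 CPM in male p53 KO and at 36.7, 32.6, and 35.7 CPM in female p53 KO. The level was 197, 157, and 147 CPM in female p53 R172H and 161, 162, and 146 CPM in male p53 Y202C. These 6 libraries stood above the other 18, of which the highest, at 67.3 CPM, belonged to female p53 Y217C. *H2-K1* was 4.77-fold higher than p53 KO in female p53 R172H (log2 fold change 2.25 ± 0.11, SE) and 3.54-fold higher in male p53 Y202C (1.82 ± 0.11), and it rose 1.66-fold in female p53 Y217C. It fell 1.49-fold in male p53 R172H, where the libraries held 26.6, 30.9, and 31.5 CPM, and 1.78-fold in male p53 Y217C, with 24.2, 24, and 26 CPM. None of these groups overlapped with its p53 KO libraries.

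*H2-D1* followed the same order at the top. Its mean was 197 ± 27.7 CPM (SD, n = 3) in female p53 R172H and 94.4 ± 9.95 CPM in male p53 Y202C, against 54.5 ± 1.37 CPM in female and 50.8 ± 2.61 CPM in male p53 KO. It was lower than p53 KO in the 4 other mutant lines, by 0.36 to 0.73 on the log2 scale, with adjusted p-values of at most 0.003. In female p53 Y217C the heavy chains went apart, *H2-K1* higher by 0.73 ± 0.11 and *H2-D1* lower by 0.45 ± 0.10 (log2, SE). Within a library, the log2 ratio of *H2-K1* to *H2-D1* per kilobase of exon was between -0.97 and -0.72 in female p53 KO and between 0.27 and 0.42 in female p53 Y217C. The male libraries had values between -0.52 and -0.32 in p53 KO and between 0.46 and 0.62 in p53 Y202C.

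Reads shared by near-identical heavy chains are left out where only reads unique to 1 gene are counted. A sum of the counts cannot recover such reads. The heavy chain counts were also summed, to give the total of the measured heavy chain genes. With *H2-K1*, *H2-D1*, and the 6 other measured heavy chains taken as 1 gene (8 genes), female p53 Y202C was higher than p53 KO by 0.47 (log2, adjusted p = 9.1e-05), against -0.36 for each of the classical genes on its own. Female p53 Y217C was then higher by 0.21 (adjusted p = 0.056), male p53 Y202C by 1.06, and male p53 R172H was lower by 0.31 (against 0.57 for *H2-K1*). In female p53 Y202C the sum thus had the opposite direction to both classical genes, and in female p53 Y217C to *H2-D1* but not to *H2-K1*. The sum includes *H2-T22* and *H2-T23*, which rose by 1.17 and 1.98 on the log2 scale in female p53 Y202C.

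*B2m* encodes the light chain shared by all class I molecules and had by far the highest level per length of the 10 genes, 336 CPM per kilobase of exon in female p53 KO against 21.1 for *H2-D1*, 19.9 for *Tapbp*, and 11.9 for *H2-K1*. At the other end, *Nlrc5* was at 0.266 and *Psmb9* at 0.105 CPM per kilobase in the same line. *B2m* was at 284, 310, and 314 CPM in male p53 KO and at 286, 292, and 288 CPM in female p53 KO. It was at 749, 739, and 612 CPM in female p53 R172H, at 494, 598, and 628 CPM in male p53 Y202C, and at 568, 518, and 595 CPM in male p53 Y217C. All 9 of these libraries lay above the libraries of the other lines, among which the highest was 420 CPM. *B2m* rose in 5 of the 6 mutant lines, from 1.28-fold in female p53 Y202C to 2.42-fold in female p53 R172H, and in male p53 R172H it was at 306, 339, and 372 CPM, overlapping p53 KO (log2 fold change 0.16 ± 0.08, SE, edgeR adjusted p = 0.13). In male p53 Y217C, *B2m* was 1.85-fold higher while *H2-K1* and *H2-D1* were lower by 0.83 and 0.73 on the log2 scale.

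*Nlrc5* encodes the class I transactivator. It was at 38.2, 30.2, and 30.6 CPM in female p53 R172H and at 10.2, 8.27, and 8.86 CPM in male p53 Y202C. In the other 18 libraries it lay between 1.05 and 2.48 CPM, so both lines stood apart from all others. The change from p53 KO was 14.6-fold in female p53 R172H (log2 fold change 3.87 ± 0.16, SE) and 6.53-fold in male p53 Y202C (2.71 ± 0.16). *Nlrc5* fell 1.93-fold in female p53 Y202C, with 1.08, 1.16, and 1.25 CPM against 2.05, 2.29, and 2.42 CPM in female p53 KO. In male p53 R172H, male p53 Y217C, and female p53 Y217C its log2 fold change was 0.35, 0.08, and -0.05, with adjusted p-values of 0.11, 0.70, and 0.82.

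**Figure D2:**
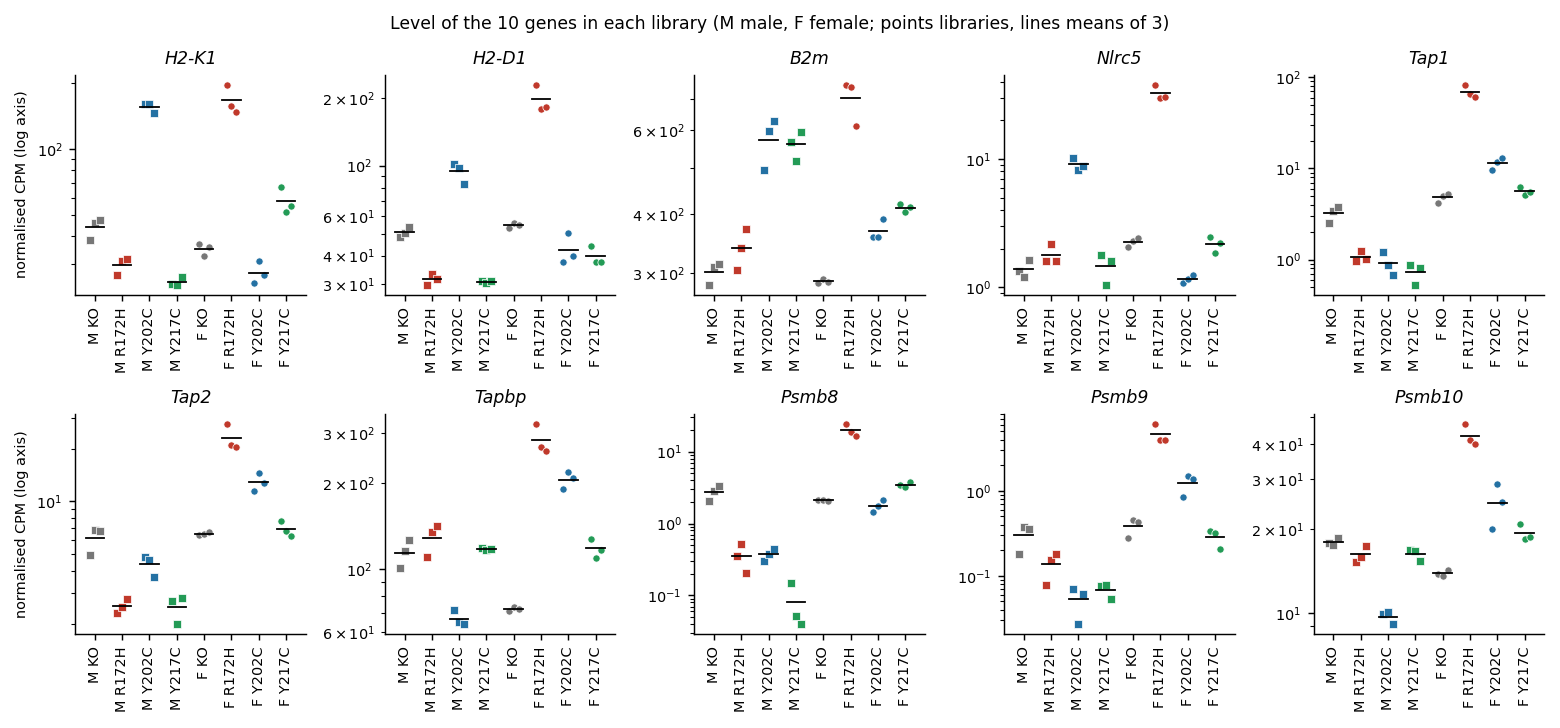
Normalised CPM (y axis, log scale) of each gene in the 24 libraries by line (x axis), with points for libraries and horizontal lines for the mean of 3 replicates. *H2-K1*, *H2-D1*, and *Nlrc5* have a pair of raised lines, female p53 R172H and male p53 Y202C, whereas *Tap1*, *Psmb8*, and *Psmb9* are lowest in the 3 male mutant lines.

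*Tap1* and *Tap2* encode the subunits of the peptide transporter. Female p53 KO held 4.12, 5.02, and 5.30 CPM of *Tap1*, female p53 Y202C held 9.59, 11.9, and 12.9, and female p53 R172H held 83.3, 65.4, and 60.8. In male p53 KO it was at 2.55, 3.43, and 3.77 CPM, and the 9 libraries of the male mutants all lay below these, between 0.53 and 1.26 CPM. The fold change was 14.5-fold up in female p53 R172H (log2 3.86 ± 0.17, SE) and 2.39-fold up in female p53 Y202C (1.26 ± 0.16). In males it was 3.07-fold, 3.48-fold, and 4.45-fold down in the R172H, Y202C, and Y217C lines, each with an edgeR adjusted p of at most 5.2e-07. In female p53 Y217C, *Tap1* was at 5.06 to 6.19 CPM (log2 fold change 0.22, adjusted p = 0.26). The mean of the highest line was 94.9 times that of the lowest, male p53 Y217C.

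*Tap2* moved in the same directions and less far. It was 3.53-fold higher in female p53 R172H and 1.97-fold higher in female p53 Y202C, and it fell by 1.31, 0.50, and 1.31 on the log2 scale in the male R172H, Y202C, and Y217C lines. The libraries of the 3 male mutants held 1.99 to 4.78 CPM, all below the lowest male p53 KO library at 4.91 CPM.

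*Tapbp* encodes tapasin, which bridges the transporter and the empty class I molecule. Its mean was 72.2 ± 1.05 CPM in female p53 KO and rose to 283 ± 34.7, 205 ± 14.2, and 118 ± 9.03 in the female R172H, Y202C, and Y217C lines (SD, n = 3). All 3 female mutants passed the test, with log2 fold changes of 1.97, 1.51, and 0.71. In males *Tapbp* fell only in p53 Y202C, 1.70-fold, while p53 R172H and p53 Y217C were at 129 ± 16.5 and 117 ± 1.29 CPM against 114 ± 12.8 CPM in p53 KO, with adjusted p-values of 0.13 and 0.70.

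*Psmb8*, *Psmb9*, and *Psmb10* encode the immunoproteasome subunits that take the places of those encoded by *Psmb5*, *Psmb6*, and *Psmb7*. *Psmb8* was at 24.3, 18.6, and 16.2 CPM in female p53 R172H, about 2.1 CPM in each female p53 KO library, and 2.07, 2.79, and 3.27 CPM in male p53 KO. In male p53 Y217C the libraries held 12, 4, and 3 counts, or 0.15, 0.0517, and 0.0402 CPM, and no count was at 0. The other male mutants were also low, with 0.204 to 0.512 CPM in p53 R172H and 0.30 to 0.442 CPM in p53 Y202C. *Psmb8* was 9.36-fold higher in female p53 R172H (log2 3.23 ± 0.21, SE), 7.59-fold lower in male p53 R172H, 7.41-fold lower in male p53 Y202C, and 32.8-fold lower in male p53 Y217C (-5.04 ± 0.33). Without the first replicate of male p53 Y217C, which holds the 12 counts, the last value was -5.85. In female p53 Y217C it rose 1.65-fold, and in female p53 Y202C it overlapped p53 KO (log2 fold change -0.24, adjusted p = 0.33).

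*Psmb9* had the lowest counts of the 10 genes and was above 1 CPM in only 5 libraries, those of female p53 R172H and 2 of female p53 Y202C, so that it passed a filter on low values through the lines in which it is high. It was at 6.14, 4.01, and 3.99 CPM in female p53 R172H and at 0.84, 1.5, and 1.39 CPM in female p53 Y202C, against 0.275, 0.448, and 0.425 CPM in female p53 KO. In male p53 KO it had 15, 47, and 47 counts, in male p53 R172H 8, 12, and 14, in male p53 Y202C 7, 2, and 4, and in male p53 Y217C 6, 6, and 4. The groups did not overlap in CPM in any of the 3 male comparisons, but in male p53 R172H the call (log2 fold change -1.23 ± 0.38, SE, edgeR adjusted p = 0.012) was lost without the second p53 KO replicate (adjusted p = 0.054) or the first p53 R172H replicate (0.087). The falls in male p53 Y202C and p53 Y217C were 5.66-fold and 4.47-fold, and the rises in female p53 R172H and p53 Y202C 12.3-fold and 3.29-fold.

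*Psmb10* was expressed more evenly, with means between 9.74 and 43.0 CPM over the 8 lines. It rose in all 3 female mutants, 3.09-fold in p53 R172H, 1.77-fold in p53 Y202C, and 1.39-fold in p53 Y217C. In males it fell only in p53 Y202C, 1.84-fold, with 9.17 to 10.1 CPM against 17.5 to 18.5 CPM in p53 KO.

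The constitutive partners *Psmb5*, *Psmb6*, and *Psmb7* had log2 fold changes between -0.81 and 0.06. Of the 18 tests over the 6 mutant lines 12 were lower, 0 higher, and 6 not past the threshold. In these comparisons 20.5% to 35.6% of all genes were called lower and 20.2% to 37.6% higher. The tests share the p53 KO libraries of a culture and are not independent. Per kilobase of exon, *Psmb8* made up 0.966% to 1.00% of *Psmb8* and *Psmb5* together in female p53 KO, 6.51% to 9.69% in female p53 R172H, and 0.0192% to 0.0753% in male p53 Y217C. *Psmb10* made up 15.8% to 16.2% of its pair with *Psmb7* in female p53 KO and 44.1% to 51.6% in female p53 R172H, whereas *Psmb9* did not exceed 2.35% of its pair with *Psmb6* in any library. The exon length is the union over all annotated transcripts, so these shares depend on the annotation. Without division by length, the log2 ratio in female p53 R172H was -1.35 to -0.91 for *Psmb10* to *Psmb7*, against -0.34 to 0.09 per kilobase. For *Psmb8* to *Psmb5* it was -1.93 to -1.31, against -3.85 to -3.22. Differences between lines in the log2 ratio do not depend on this length. Of the 50-base stretches of *Psmb5*, 54.1% occur in other genes, so reads of that gene may have been left out and its level understated.

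**Figure D3:**
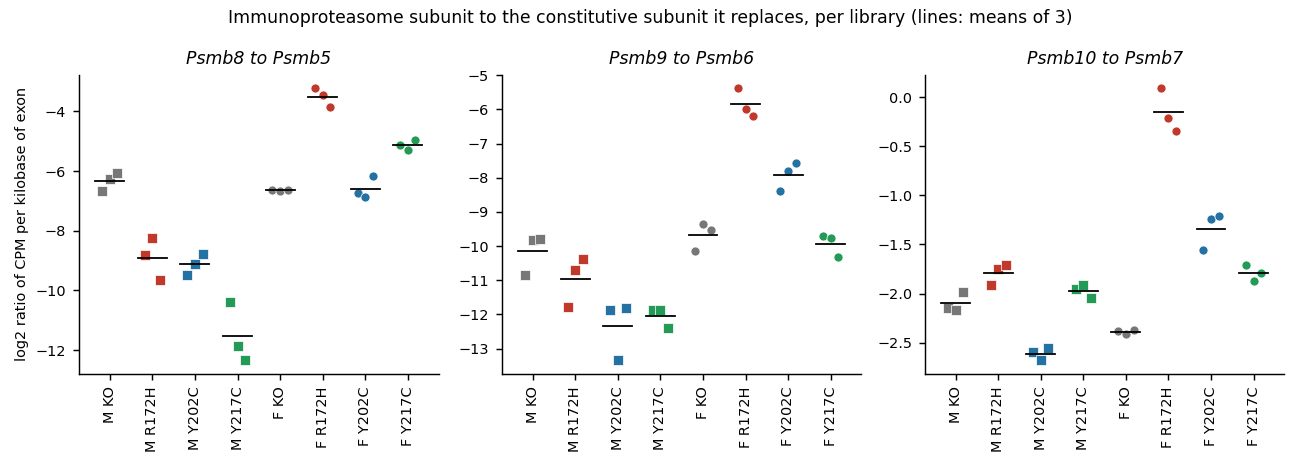
Log2 ratio per kilobase of exon of each immunoproteasome subunit to the constitutive subunit it replaces (y axis), for the 24 libraries by line (x axis), with points for libraries and lines for the mean of 3. Female p53 R172H has the highest ratios in all 3 panels, and the male mutants have the lowest *Psmb8* to *Psmb5* ratios, down to -12.3 in male p53 Y217C.

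Ordered by mean, female p53 R172H was the highest of the 8 lines for each of the 10 genes. It did not differ from the next line, male p53 Y202C, for *H2-K1* (adjusted p = 0.40), and it differed from the next line for the other 9. For *H2-D1*, *B2m*, and *Nlrc5* the second line was again male p53 Y202C, although for *B2m* it did not differ from male p53 Y217C (adjusted p = 0.73). For *Tap1*, *Tap2*, *Tapbp*, *Psmb9*, and *Psmb10* the second line was female p53 Y202C, which differed from the next line for each of them. At the low end, male p53 Y217C was last for *H2-K1*, *H2-D1*, *Tap1*, *Tap2*, and *Psmb8*, without a difference from the line above for any of these but *Psmb8*. Male p53 Y202C was last for *Tapbp*, *Psmb9*, and *Psmb10*, but differed from the line above only for *Psmb10* (adjusted p = 0.29 for *Tapbp* and 0.63 for *Psmb9*).

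The 2 cultures were compared through the difference between the male and the female effect of the same mutation. For p53 R172H that difference passed the test for all 10 genes, each with the lower value in males, where 58% of all genes passed, 28.3% with the lower and 29.7% with the higher value in males. It was -6.15 ± 0.32 for *Psmb8* and -5.48 ± 0.25 for *Tap1*, and -1.12 ± 0.12 for *B2m* (log2, SE). For p53 Y202C it passed for 10 genes (68% of all genes), with 4 higher and 6 lower in males (34.5% and 33.5% of all genes). *Nlrc5* (3.65 ± 0.24) and *H2-K1* (2.18 ± 0.16) had the higher effect in males, and *Psmb9* (-4.22 ± 0.54) and *Tap1* (-3.05 ± 0.26) the lower. For p53 Y217C it passed for 8 genes (54.8%), with *B2m* alone higher in males (27.5% of all genes) and 7 lower (27.4%), and *H2-D1* and *Nlrc5* missed the threshold at adjusted p-values of 0.10 and 0.69, the former passing it with limma. *Trp53* itself differed between the cultures, at 593 ± 18.0 CPM in female and 2324 ± 104 CPM in male p53 Y202C, and at 3709 ± 162 CPM in female and 1215 ± 29.5 CPM in male p53 Y217C, and its part in these differences was not tested. In p53 R172H the levels were 1956 ± 65.4 CPM in females and 2287 ± 80.2 CPM in males (SD, n = 3).

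Between the p53 KO lines the 10 genes were closer. Male and female p53 KO differed at 5 of them (31.1% of all genes), with *Tapbp*, *Psmb10*, and *H2-K1* higher in males (17.2% of all genes) and *Nlrc5* and *Tap1* lower (13.8%), and no log2 difference exceeded 0.69 in size. The call for *H2-K1* (0.33, adjusted p = 0.022) was lost without the second or the third male or the second female p53 KO replicate, and that for *Tap1* (-0.55, adjusted p = 0.013) without the first male or the third female replicate. Between male and female p53 R172H all 10 genes differed and were lower in males, where 62% of all genes differed, 29.7% lower and 32.4% higher. For p53 Y202C 4 genes were higher and 6 lower in males (37.7% of all genes in each direction, 75.3% in all), and for p53 Y217C 1 was higher and 8 lower (33.4% and 34.6%, 68% in all). *Tap1* in p53 R172H was 65.4-fold lower in males than in females, and *Psmb8* in p53 Y217C 41.6-fold lower. For p53 Y217C the calls of *Nlrc5* (-0.56) and *Psmb10* (-0.24) rested on single replicates, as *Nlrc5* was lost without the second male replicate and *Psmb10* without the third male or the first female replicate.

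Another 6 class I heavy chain genes were measured of 23 listed, the nonclassical *H2-Q4*, *H2-T10*, *H2-T22*, *H2-T23*, *H2-T24*, and *H2-M3*. All 6 rose in female p53 R172H, where 34.4% of all genes did, with a median log2 fold change of 2.14. *H2-Q4* was above 1 CPM only in that line (14.8 to 21.7 CPM) and in male p53 Y202C (1.60 to 2.19 CPM), so it is measured mainly where it is high. *H2-T23*, which encodes Qa-1, a ligand of the NKG2A receptor, went from 10.5 to 11.1 CPM in female p53 KO to 95.8 to 130 CPM there, to 38.5 to 47.9 CPM in female p53 Y202C, and to 26.0 to 28.9 CPM in male p53 Y202C against 11.4 to 15.1 CPM in male p53 KO. In female p53 Y202C 4 of the 6 were higher and 0 lower (34.3% of all genes each way), and in female p53 Y217C 4 and 0 (28% and 28.7%). The numbers were 0 and 1 in male p53 R172H (20.2% and 20.5% of all genes) and 3 and 2 in male p53 Y202C (37.6% and 35.4%). In male p53 Y217C they were 0 and 3 (34.9% and 35.6%). Among the class I-like partners of B2m, *Hfe*, a regulator of iron uptake, rose 3.02 on the log2 scale in male p53 Y202C, 1.62 in male p53 Y217C, and 1.85 in female p53 R172H. *Mr1*, which presents vitamin metabolites, fell by 1.99 in male p53 Y202C and rose by 1.73 in male p53 Y217C.

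Of 17 further genes for peptide trimming, chaperoning, and loading, 7 rose and 7 fell in female p53 R172H, against 34.4% and 35.3% of all genes, and the list median was 0.02. The genes that rose included *Psme1* and *Psme2*, the interferon-inducible activator of the proteasome, by 1.60 and 1.41 on the log2 scale, *Tapbpl*, a peptide editor related to tapasin, by 1.16, and *Erap1*, the trimming peptidase of the endoplasmic reticulum, by 0.94. *Calr*, encoding the chaperone calreticulin, fell in 5 of the 6 mutant lines, by 0.37 to 1.15, and was -0.14 in male p53 R172H without passing the test. More of the list fell than rose in the male mutants and in female p53 Y217C. In male p53 R172H 8 fell and 3 rose, against 20.5% and 20.2% of all genes. The numbers were 11 and 1 in male p53 Y202C (35.4% and 37.6% of all genes) and 11 and 3 in male p53 Y217C (35.6% and 34.9%). In female p53 Y217C 10 fell and 3 rose (28.7% and 28%), and in female p53 Y202C 7 and 7 (34.3% each way). The 12 remaining genes of the 20S core and its assembly had list medians between -0.13 and 0.08 in the 6 comparisons.

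*Irf9*, a DNA-binding factor of the type I interferon response, was raised in 2 female lines. It was at 109 to 124 CPM in female p53 R172H, at 40.3 to 47.3 CPM in female p53 Y202C, and between 11.6 and 16.9 CPM in the other 18 libraries. *Irf1*, which binds class I and *Psmb9* promoters, was at 62.6 to 71.0 CPM in female p53 R172H against 34.0 to 36.8 CPM in female p53 KO. It fell in male p53 Y202C, to 9.87 to 11.6 CPM, and in male p53 Y217C, to 17.1 to 17.9 CPM, from 40.2 to 47.2 CPM in male p53 KO, and in male p53 R172H it was at 40.8 to 47.0 CPM (log2 fold change -0.02). Of the 17 measured transcription factors of class I genes, 11 rose and 2 fell in female p53 R172H (34.4% and 35.3% of all genes), 8 and 4 in female p53 Y202C (34.3% each), and 5 and 5 with p53 Y217C (28% and 28.7%). In the male R172H, Y202C, and Y217C lines 6, 5, and 3 of them rose, against 20.2%, 37.6%, and 34.9% of all genes, and 1, 6, and 9 fell, against 20.5%, 35.4%, and 35.6%.

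The 24 interferon-stimulated genes all rose in female p53 R172H and in female p53 Y202C, where 34.4% and 34.3% of all genes were called higher. Their median log2 fold changes were 5.77 and 3.05, with ranges of 1.54 to 10.3 and 0.23 to 4.46. They summed to 2535 to 3554 CPM and 447 to 586 CPM against 122 to 128 CPM in female p53 KO. Genes of this list that were low in p53 KO may have passed a filter on low values through these female mutant lines. For such genes a rise in these lines adds no support of its own. In female p53 Y217C 12 rose and 1 fell, against 28% and 28.7% of all genes. The numbers were 2 and 10 in male p53 R172H (20.2% and 20.5% of all genes) and 7 and 11 in male p53 Y202C (37.6% and 35.4%). In male p53 Y217C they were 4 and 13 (34.9% and 35.6%). Male p53 Y202C, with raised *H2-K1*, *H2-D1*, and *Nlrc5*, thus summed to 160 to 178 CPM over this list, next to 125 to 161 CPM in male p53 KO. Of 10 interferon receptors and JAK pathway genes, 7 rose and 0 fell in female p53 R172H, against 34.4% and 35.3% of all genes. In male p53 Y202C 6 rose and 1 fell (37.6% and 35.4% of all genes), and *Jak2* rose there by 1.37 on the log2 scale. *Socs1*, an inhibitor of this pathway, rose by 1.37 in female p53 R172H and fell by 0.94 in male p53 Y202C. Of the 10, 7 rose and 2 fell in female p53 Y202C (34.3% of all genes each way), and 7 and 0 in female p53 Y217C (28% and 28.7%). The numbers were 5 and 1 in male p53 R172H (20.2% and 20.5% of all genes) and 3 and 6 in male p53 Y217C (34.9% and 35.6%).

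**Figure D4:**
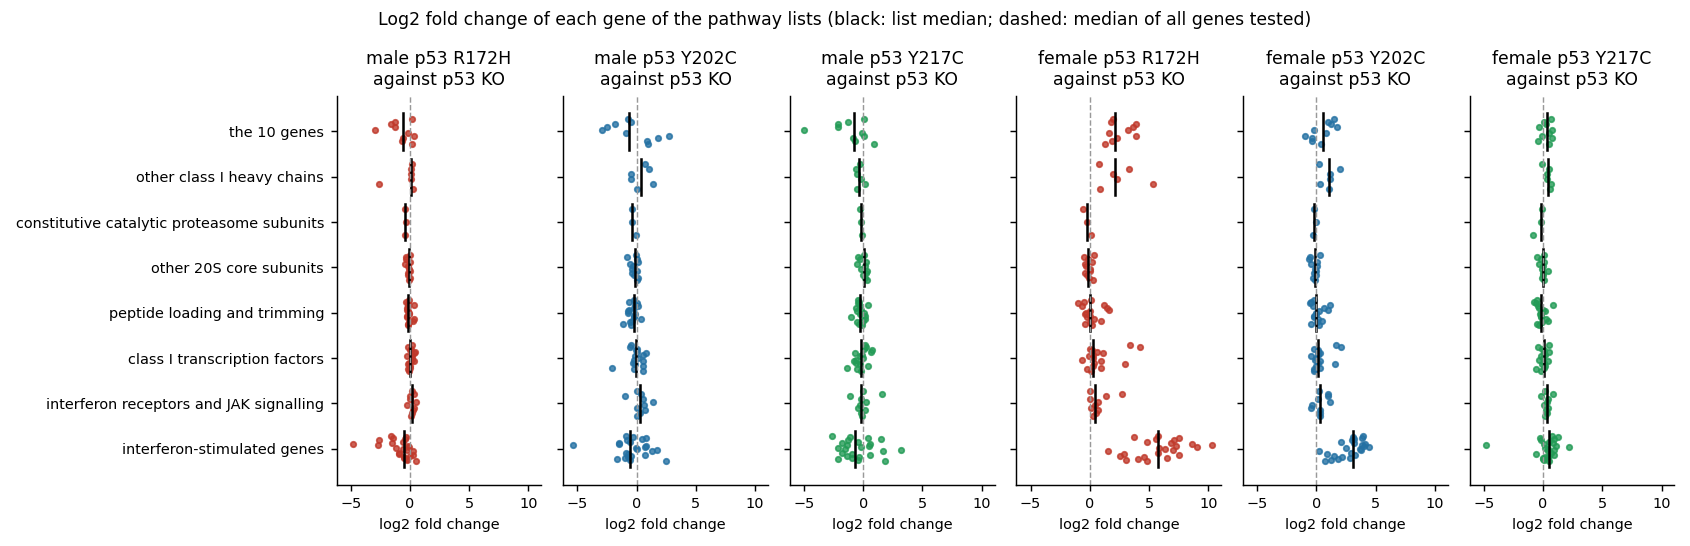
Log2 fold change (x axis) of each gene of 8 lists (rows) in each mutant line against its p53 KO line, with black bars for list medians and a dashed line for the median of all genes tested. In female p53 R172H and female p53 Y202C the interferon-stimulated genes lie to the right, with medians of 5.77 and 3.05, and the medians of the 3 constitutive catalytic subunits lie between -0.42 and -0.16 over the 6 panels.

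*Ezh2*, *Eed*, and *Suz12* encode the core of PRC2, a repressor known to act on class I processing genes. All 3 fell in female p53 R172H and in female p53 Y202C, by 0.37 to 0.66 and 0.39 to 0.51 on the log2 scale. There 35.3% and 34.3% of all genes were called lower. In male p53 Y202C *Ezh2* fell by 0.96 and *Eed* rose by 0.49 (35.4% of all genes lower, 37.6% higher). Of the 3 genes, 2 fell and 0 rose in male p53 Y217C (35.6% of all genes lower) and in female p53 Y217C (28.7%). In male p53 R172H 1 fell and 0 rose (20.5%). Among MHC class II genes only *H2-DMa*, *H2-DMb1*, and *Cd74* of 11 listed were among the genes analysed, and *Cd74*, the invariant chain, rose in all 6 mutant lines, by 0.96 to 3.17. *H2-DMb1*, a subunit of the class II peptide exchanger, fell by 1.58 in male p53 Y202C, 2.86 in male p53 Y217C, and 1.79 in female p53 Y202C, and its partner *H2-DMa* passed the test only in male p53 Y202C, at 0.37.

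Marker lists of other cells also differed between lines, in those with raised and with lowered class I genes. The 8 fibroblast and pericyte markers summed to 38402 to 44878 CPM in female p53 R172H against 24593 to 26462 CPM in female p53 KO, and to 10147 to 12318 CPM in male p53 Y202C against 27602 to 32495 CPM in male p53 KO. The 10 astrocyte markers summed to 650 to 685 CPM and 227 to 240 CPM in these mutant lines, against 391 to 416 and 387 to 410 CPM in p53 KO. The 2 measured neuron markers of 6 summed to 115 to 124 CPM in female p53 R172H and 50.8 to 60.3 CPM in male p53 Y202C, against 10.8 to 11.7 and 22.3 to 27.1 CPM in p53 KO. The 2 markers had log2 fold changes of 0.57 and 3.48 in female p53 R172H. In male p53 Y202C these were -4.17 and 1.21, so there the markers went in opposite directions. The 2 microglia and macrophage markers summed to 103 to 114 CPM in female p53 R172H, 43.1 to 46.8 CPM in female p53 KO, 20 to 22.2 CPM in male p53 Y202C, and 64.4 to 80.7 CPM in male p53 KO, nearly all of it *Tmem119*. The 3 measured endothelial markers of 7 summed to 17.2 to 17.8 CPM in female p53 R172H against 17.7 to 19.1 CPM in female p53 KO, and to 6.95 to 7.67 CPM in male p53 Y202C against 43.3 to 47.6 CPM in male p53 KO. The 3 oligodendrocyte lineage markers of 7 summed to 163 to 193 CPM against 279 to 290 CPM, and to 141 to 168 CPM against 243 to 265 CPM, in the same order. Their log2 fold changes ran from -0.71 to 0.94 (median 0.69) in female p53 R172H and from -1.44 to 0.47 (median -0.72) in male p53 Y202C. A sum is carried by the most abundant genes of its list, and single markers could move the other way. In male p53 Y217C the oligodendrocyte lineage sum was 61.5 to 64.9 CPM, the endothelial 6.94 to 7.57, the microglia and macrophage 16.7 to 18.3, the neuron 2.03 to 2.41, the fibroblast and pericyte 20120 to 20705, and the astrocyte 561 to 607 CPM. In female p53 Y202C the fibroblast and pericyte sum was 33594 to 39674 CPM, the neuron 34.3 to 35.9, and the microglia and macrophage 72.0 to 88.2 CPM. In male p53 R172H the endothelial sum was 10.9 to 11.4 CPM and the neuron 4.70 to 5.79 CPM, and in female p53 Y217C these were 7.39 to 9.38 and 4.73 to 5.02 CPM and the microglia and macrophage sum 94.8 to 102 CPM. The part of these cells or programs in the class I differences was not tested.

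Across the 8 line means (log2 CPM), which share libraries and normalisation and rest on single lines, the 10 genes fell into patterns that are given as a description. *H2-K1* and *H2-D1* followed *Nlrc5*, with Pearson's r of 0.92 and 0.94 and Spearman's rho of 0.76 and 0.64, but without male p53 Y202C and female p53 R172H r was 0.52 and 0.17 over 6 lines, so the relation rests on those lines. *Tap1* followed *Tap2*, *Psmb8*, and *Psmb9*, with r of 0.97, 0.92, and 0.98, and 0.91, 0.83, and 0.95 without the 2 lines farthest from the median. *Tapbp* followed *Psmb10* (r = 0.95, and 0.90 over 6 lines), and *H2-K1* and *Tapbp* had r = 0.08. *Tap1* and *Irf9* had r = 0.86 over 8 lines and 0.02 without female p53 R172H and female p53 Y202C. With *Irf1*, *Tap1* had r = 0.74 and *Psmb9* r = 0.80 over 8 lines. Without male p53 Y202C and male p53 Y217C, the lines farthest from the *Irf1* median, these were 0.69 and 0.76. That set still holds female p53 R172H. *H2-K1* and *B2m* had r of -0.11 and -0.29 with *Irf1* over 8 lines, and 0.76 and 0.83 over the same 6.

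**Figure D5:**
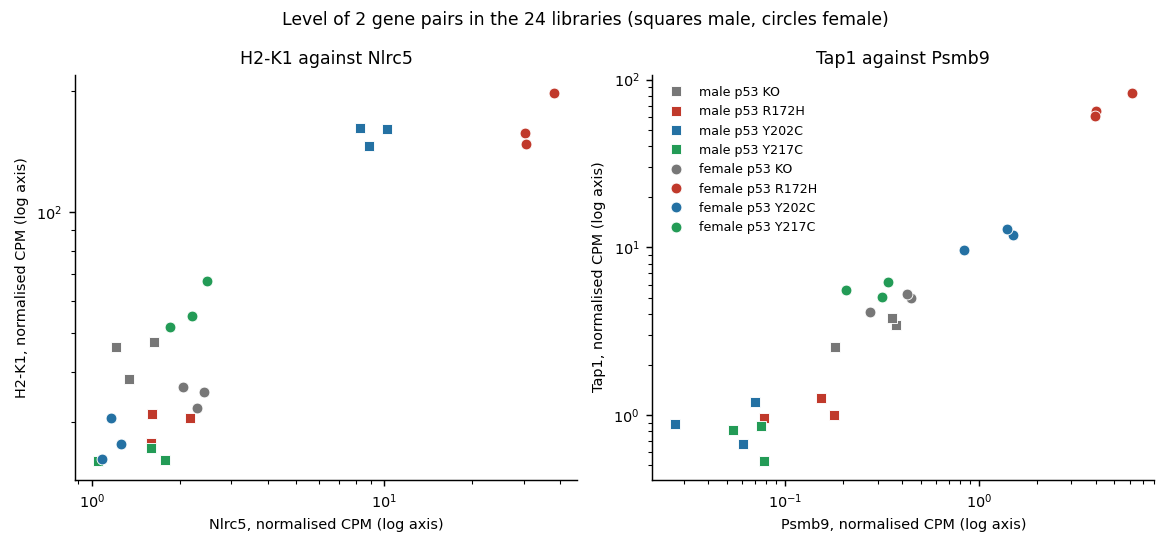
*H2-K1* against *Nlrc5* and *Tap1* against *Psmb9* in the 24 libraries (both axes normalised CPM, log scale), with squares for male and circles for female lines. On the left the libraries of female p53 R172H and male p53 Y202C stand apart at the upper right, and on the right the libraries of the male mutants lie at the lower left, below 1.3 CPM of *Tap1* and 0.2 CPM of *Psmb9*.

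Outside the 10 genes and among genes with a mean of at least 1 CPM, the line means most like *H2-K1* were those of *Cd274* (r = 0.98), *Smap2* (0.96), and *Gvin1* (0.96). *Cd274* encodes PD-L1, an inhibitory ligand for T cells. The most like *Nlrc5* were *Golga7* (0.98), *Golph3* (0.96), and *Slf2* (0.95), and the most like *B2m* were *Letmd1* (0.99), *Lipe* (0.98), and *5930403N24Rik* (0.97). For *Tap1* they were *Cxcl5* (0.99), *Ddx60* (0.97), and *Ifih1* (0.96), and for *Psmb8* *Fstl3* (0.97), *Crabp2* (0.96), and *Tlr5* (0.96). Each r is the highest of many over only 8 points.

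Genes around the chromosome 17 members were examined because 7 of the 10 genes lie close together. Within 1 Mb of a member, 103 tested genes outside the class I and class II lists had a median log2 fold change of 0.00 in female p53 R172H, where the 7 members on chromosome 17 had 2.25. Of these neighbours 31.1% were called higher there, against 34.4% of all genes. In male p53 Y217C the neighbours had a median of 0.04 and the 7 members -1.31. The largest median of the neighbours was 0.21, in female p53 Y202C, where 51.5% were called higher against 34.3% of all genes.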

How the data were processed

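RNA-seq of 24 libraries from 8 lines, grouped by the sample labels, was analysed. The authors aligned reads with STAR to the Ensembl release 76 primary assembly, used featureCounts for reads with a unique alignment to 1 gene, and deposited the raw counts without normalization for 14427 genes. These were matched by identifier to GENCODE M21 (14350 named). No column was left unused. Counts were analysed by edgeR 4.0.16 (R 4.3.3), with TMM scaling, genes above 1 CPM in at least 2 libraries (none was removed), 1 mean per line, quasi-likelihood tests over all 24 libraries, and Benjamini-Hochberg adjustment over all genes with a threshold of 0.05. CPM are TMM-normalised, and log2 CPM used a prior count of 2. The SE was derived from the F statistic. The model was tested on simulated data.

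Named genes were the 10 members, the genes of the pathway and marker lists, *Trp53*, and the 3 genes most like each of 5 members. The members and lists were chosen with earlier results of these data known. Same-numbered replicates did not deviate together (mean correlation -0.01 over 84 pairs, and no pair of lines with every correlation above 0.1), so the numbers were not used as pairs. Total counts ranged from 52787288 to 136503809, and a value resting on few counts, as for *Psmb8* and *Psmb9* in male mutants, is given with its counts. Alternatives were limma 3.58.1 (voomWithQualityWeights, the study's test), DESeq2 1.42.0, DESeq2 size factors, other filters and thresholds, fitting only the lines compared, a replicate block, summed heavy chains, each replicate left out, and, chosen after seeing the data, a fit without female p53 R172H.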

Additional observations from a re-analysis of the deposited data

Results flagged for a closer look

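The effects of a mutation in the male and the female culture were compared by the interaction term of the edgeR model (male effect minus female effect, log2), and each value below passed an adjusted p of 0.05 in that test. For p53 R172H the difference was -2.83 for *H2-K1*, -2.55 for *H2-D1*, -1.12 for *B2m*, and -3.52 for *Nlrc5*. In the same mutant it was -5.48 for *Tap1*, -3.13 for *Tap2*, -1.80 for *Tapbp*, -6.15 for *Psmb8*, -4.85 for *Psmb9*, and -1.77 for *Psmb10*, so that all 10 genes had the lower effect in males. For p53 Y202C the effect was higher in males for *H2-K1* (2.18), *H2-D1* (1.25), *B2m* (0.57), and *Nlrc5* (3.65). It was lower in males for *Tap1* (-3.05), *Tap2* (-1.48), *Tapbp* (-2.28), *Psmb8* (-2.65), *Psmb9* (-4.22), and *Psmb10* (-1.71). For p53 Y217C the difference was 0.38 for *B2m*, -1.56 for *H2-K1*, -2.37 for *Tap1*, -1.40 for *Tap2*, -0.67 for *Tapbp*, -5.75 for *Psmb8*, -1.78 for *Psmb9*, and -0.61 for *Psmb10*. With the heavy chains summed the p53 Y202C difference was 0.59 in place of the values for *H2-K1* and *H2-D1*. Without the first male p53 Y217C replicate the *Psmb8* difference for that mutant was -6.56. Each mutation was carried by 1 line per sex, so the difference between effects cannot be told apart from a difference between lines.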

How the results depend on the processing

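Over all comparisons and alternatives, 1909 of 1950 recomputed log2 fold changes of the 10 genes kept their direction and their side of the threshold, 19 reversed, 15 lost and 7 gained significance. The reversals of called values, 3 in all, came with the heavy chains summed, to 0.47 for *H2-K1* and *H2-D1* in female p53 Y202C and to 0.21 for *H2-D1* in female p53 Y217C, where the sum includes 6 further genes by construction. The *H2-D1* difference between male and female p53 KO became 0.11 with that sum. The other reversals were of values near 0 that did not pass the test. With a replicate left out, *Tapbp* in male p53 Y217C ranged from -0.042 to 0.12, *Nlrc5* from -0.091 to 0.27 in male and from -0.16 to 0.056 in female p53 Y217C, and the p53 Y217C interaction of *Nlrc5* from -0.034 to 0.32. The difference between male and female lines ranged from -0.15 to 0.066 for *Tap2* in p53 KO, which was 0.016 with limma, and from -0.058 to 0.052 for *Tapbp* in p53 Y217C. The last was also 0.0070 with DESeq2 and with its size factors, 0.031 with the filter in all 24 libraries, 0.013 with only the lines compared, and 0.042 with limma. The fit without female p53 R172H changed no call or direction among the values it gave.

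Requiring more than 1 CPM in all 24 libraries removed *Tap1*, *Psmb8*, and *Psmb9*. The counts of genes called and called lower were then 3 and 3 in male p53 R172H and 4 and 3 in male p53 Y217C, 5 and 4 for the p53 Y217C interaction and for male against female p53 Y217C, and 3 lower in male p53 Y202C, for the p53 Y202C interaction, and for male against female p53 Y202C, with 1 lower for male against female p53 KO. An absolute log2 fold change above 1 left 5 genes in male p53 Y202C (2 higher, 3 lower), 4 in male p53 Y217C (0 higher), 3 in female p53 Y202C (3 higher, 0 lower), 0 in female p53 Y217C (0 higher, 0 lower) and between the p53 KO lines (0 and 0), 5 for the p53 Y217C interaction (0 higher), and 5 for male against female p53 Y217C (0 higher, 5 lower). Above 0.5, 1 gene was lower in female p53 Y202C, 0 were lower in female p53 Y217C, 0 were higher for the p53 Y217C interaction and for male against female p53 Y217C, and 3 (1 higher) differed between the p53 KO lines. At an adjusted p of 0.01 or less 3 genes differed between the p53 KO lines, 1 of them lower.

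With each replicate left out in turn, the genes called in male p53 R172H numbered 5 to 7, with 0 to 2 higher and 5 to 6 lower, those between the p53 KO lines 4 to 5, with 2 to 3 higher and 1 to 2 lower, and those between male and female p53 Y217C 8 to 9, with 7 to 8 lower. In male p53 R172H, *B2m* passed without the first p53 R172H replicate, and *Tapbp* without that one or the third p53 KO replicate. The replicate block left the number of genes called at 6, 10, and 7 in male and 10, 9, and 6 in female p53 R172H, p53 Y202C, and p53 Y217C and changed no other call among the counts of the 10 genes, although same-numbered replicates share only a number. The counts of *Psmb8* and *Psmb9* limit the precision of their changes in male mutants.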
